A study of Mus musculus with 10 samples.

Results

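Expression of 9 genes that mark B cells or plasma cells was followed through RNA sequencing libraries of macrophages sorted from the mouse small intestine. Rows of the deposited table were found by gene name, and the 9 genes had been chosen with earlier results of these data known. Of the 9 genes, 4 mark B cells (Cd79a, Cd79b, Ms4a1 and Pax5) and 5 mark plasma cells (Xbp1, Sdc1, Mzb1, Prdm1 and Tnfrsf17). All 9 were listed among 17279 genes, and all 9 passed the filter on low counts that left 16949 genes for testing. The libraries came from 5 sham-operated and 5 pMCAO samples, each taken 24 h after surgery, where pMCAO is permanent middle cerebral artery occlusion, a model of ischaemic stroke in which a brain artery is closed for good. Every sample carried the genotype label C57BL6/J, and the cells were collected by fluorescence-activated sorting as CX3CR1-GFP+ cells of the lamina propria, the connective tissue under the gut epithelium. CX3CR1 is a chemokine receptor of resident macrophages and of other myeloid cells. The genotype label did not name the reporter allele. Age, sex and the remaining gates of the sort were not given in the sources used here. The labels call each library a biological replicate, while the description of replicate 1 in each group also carried the word pool. How many animals stood behind a library was not given, so p-values measured the spread between these libraries.

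B cells carry an antibody on their surface as the B cell receptor, which signals through the paired chains encoded by Cd79a and Cd79b. Ms4a1 encodes CD20, a membrane protein of mature B cells, and Pax5 is the transcription factor that holds B cell identity. When a B cell becomes a plasma cell, Prdm1 (Blimp-1) represses Pax5 and the B cell programme, and Xbp1 enlarges the endoplasmic reticulum for antibody secretion. Mzb1 is a chaperone-like protein of the endoplasmic reticulum that helps antibody assembly, Sdc1 encodes the surface proteoglycan CD138, and Tnfrsf17 encodes BCMA, a receptor for the survival ligands APRIL and BAFF. Plasma cells of the gut lamina propria secrete mainly IgA. Some of these genes are not private to the B lineage: Xbp1 serves any cell under secretory load, Prdm1 is used by macrophages and T cells, Sdc1 is abundant on epithelium, and plasma cells keep some Cd79a.

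Upstream sequences of 4 of the genes are shown as examples of each class, Cd79a and Pax5 for B cells and Xbp1 and Tnfrsf17 for plasma cells. They were taken from RefSeq on build GRCm38.p6, end before the annotated start and leave out annotated exons. The windows lie at chr7:24897247-24897380 on the plus strand for Cd79a, chr4:44710695-44710944 on the minus strand for Pax5, chr11:5520391-5520640 on the plus strand for Xbp1 and chr16:11313559-11313808 on the plus strand for Tnfrsf17. Capitals mark matches to the motifs searched on both strands: the octamer ATTTGCAT, the EBF1 motif (TCCC and GGGA with 2 bases between), the E boxes CAGGTG and CAGCTG, and the unfolded protein response element TGACGTGG.
Cd79a: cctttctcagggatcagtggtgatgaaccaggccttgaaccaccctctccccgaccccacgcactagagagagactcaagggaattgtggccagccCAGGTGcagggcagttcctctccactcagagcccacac
Pax5: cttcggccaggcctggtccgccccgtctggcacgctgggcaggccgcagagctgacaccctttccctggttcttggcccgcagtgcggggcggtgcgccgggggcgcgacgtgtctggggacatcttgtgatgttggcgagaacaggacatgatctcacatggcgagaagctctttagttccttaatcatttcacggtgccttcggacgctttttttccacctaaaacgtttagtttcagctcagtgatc
Xbp1: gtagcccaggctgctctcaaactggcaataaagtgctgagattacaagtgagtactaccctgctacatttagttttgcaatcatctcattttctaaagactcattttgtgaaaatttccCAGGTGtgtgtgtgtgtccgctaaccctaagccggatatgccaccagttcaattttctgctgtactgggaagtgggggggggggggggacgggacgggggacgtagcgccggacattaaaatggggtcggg
Tnfrsf17: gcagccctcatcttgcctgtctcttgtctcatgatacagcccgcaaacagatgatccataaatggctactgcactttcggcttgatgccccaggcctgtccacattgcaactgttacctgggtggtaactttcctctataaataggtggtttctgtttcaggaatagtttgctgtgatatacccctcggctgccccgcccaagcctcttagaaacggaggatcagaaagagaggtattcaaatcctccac
Cd79a held CAGGTG from base -38 to base -33 and Xbp1 held it from base -131 to base -126, counted back from the end of the window. Pax5 and Tnfrsf17 held no match. Prdm1 also held 1 E box in its window, and Sdc1 held no match. The Prdm1 window, chr10:44458749-44458998 on the minus strand, lies inside the GENCODE span of the gene given below, not before it. Either E box occurred in 15.8% of 32851 mouse promoter windows cut to the 134 bases of the Cd79a window and in 27.74% cut to 250 bases. The octamer occurred in 1.6%, the EBF1 motif in 0.78% and the unfolded protein response element in 0.56% of windows of 250 bases. These matches describe letters only. Cd79b, Ms4a1 and Mzb1 are named without a sequence.

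In the GENCODE M21 annotation of GRCm38, Cd79a spans 24897381-24902197 on the plus strand of chromosome 7, and Cd79b spans 106311341-106314762 on the minus strand of chromosome 11. Ms4a1 spans 11249675-11266241 on the minus strand of chromosome 19, and Pax5 spans 44524757-44710487 on the minus strand of chromosome 4. Xbp1 spans 5520659-5525893 on the plus strand of chromosome 11, Sdc1 spans 8771323-8793715 on the plus strand of chromosome 12, and Mzb1 spans 35647267-35649367 on the minus strand of chromosome 18. Prdm1 spans 44437177-44528501 on the minus strand of chromosome 10, and Tnfrsf17 spans 11313812-11320074 on the plus strand of chromosome 16. Mzb1 shares 695 exonic bases with a SPATA24 model on the same strand, so its level is uncertain where reads were split. Exons of Pax5 overlap 125 bases of Gm12462 and 636 bases of 5730488B01Rik on the opposite strand, and strandedness of the counting was not given in the sources used here. None of these 3 overlapping genes had a row in the table.

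The libraries held 18894151 to 60665972 counts in the sham group and 6430643 to 28672285 in the pMCAO group. The 11 macrophage markers, led by Lyz2, C1qb and Csf1r, were all present, with a summed level of 8313 to 18346 CPM (counts scaled to library size) in sham and 8998 to 16821 CPM in pMCAO libraries. Epithelial markers summed to 400.5 to 842 CPM in sham and 96.6 to 981 CPM in pMCAO libraries, and 11 T cell markers to 230 to 700 and 223 to 437 CPM. In pMCAO replicate 3, 1443 listed genes had no count, and in sham replicate 4, 886 had none, against 32 to 410 in the other libraries. Xist, the RNA of the inactive X chromosome, was high in sham replicate 5 (1755 CPM) and pMCAO replicate 4 (4460 CPM) and lay between 1.39 and 4.92 CPM in the other 8 libraries. Estimates without the 2 libraries with high Xist, and without single libraries, stand beside the results they touch or in the closing section. The 4 libraries were not left out together.

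B cell and plasma cell transcripts were present in the sorted cells, and their levels differed more between libraries of a group than between the groups. None of the 9 genes changed between pMCAO and sham libraries in the quasi-likelihood test of edgeR at an FDR of 0.05, and 0 of 9 had an unadjusted p under 0.05. Among all 16949 genes the test called 0 (0%), and 799 genes (4.71%) had an unadjusted p under 0.05. DESeq2 called 3 genes, none of them among the 9, and limma-voom called 0. For every one of the 9 genes the groups overlapped, whereas 0.991% of all genes (168) had groups that did not overlap, 0.454% with pMCAO higher and 0.537% with pMCAO lower. Estimates on the log2 scale were below 0 for all 4 B cell genes (median -0.49) and above 0 for 4 of the 5 plasma cell genes (median 0.04), beside a median of -0.0059 over all genes tested. In bulk libraries, fewer cells of a type and less RNA per cell cannot be told apart.

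**Figure D1:**
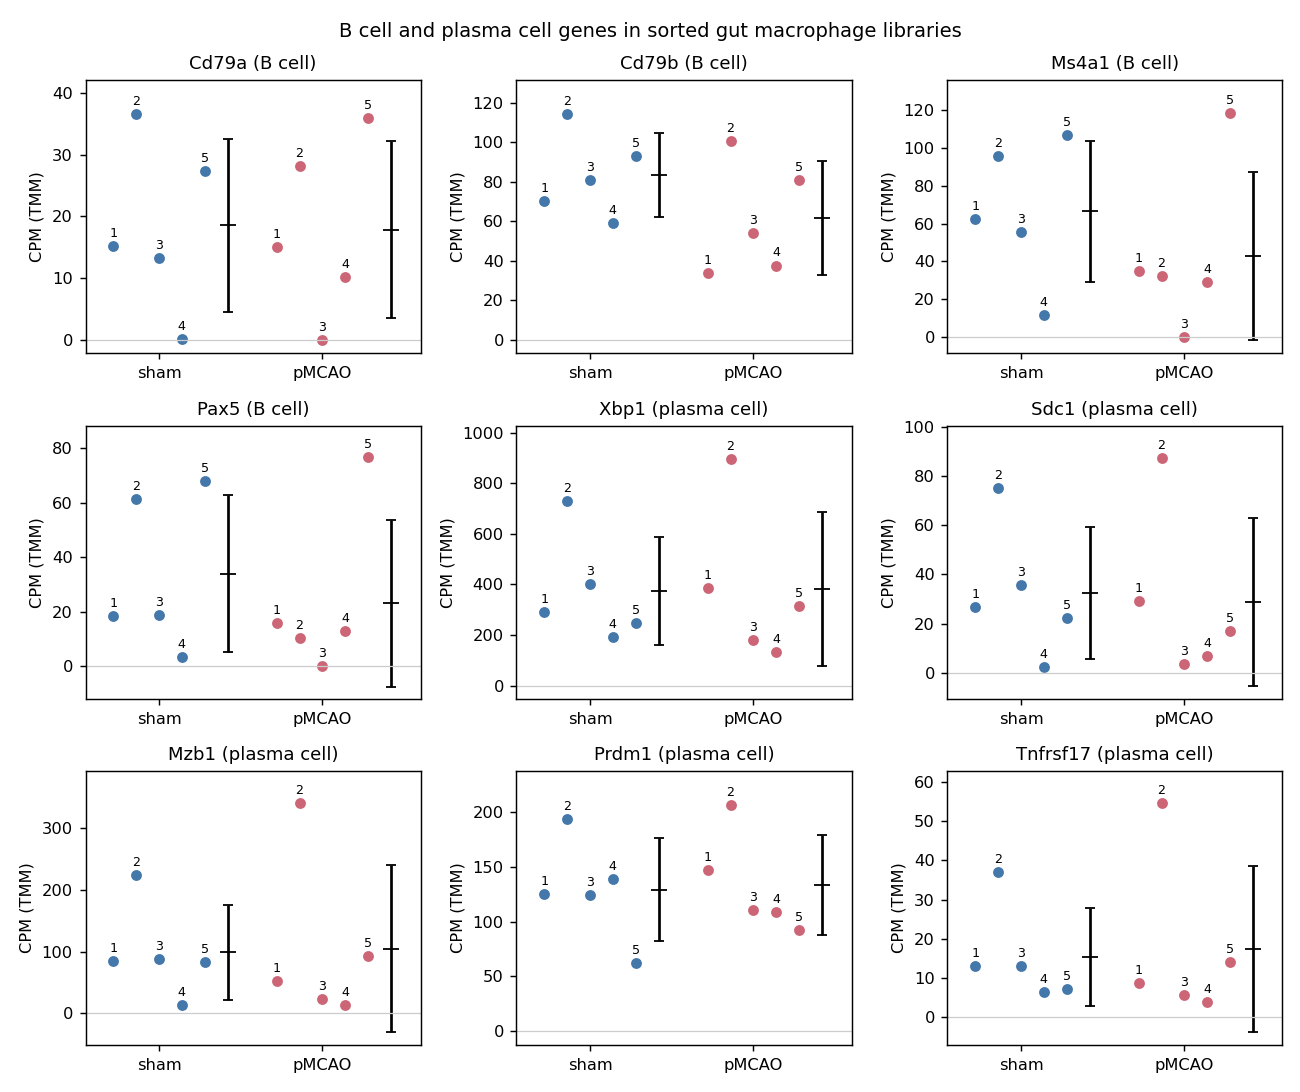
Level of each of the 9 genes in every library, in CPM with TMM scaling (vertical axes), for sham (blue) and pMCAO (red); digits give the replicate, and the bar beside each group is the mean ± SD of its 5 libraries. The groups overlap for each gene, replicate 2 of each group is high for the plasma cell genes, and pMCAO replicate 3 is at 0 for Cd79a, Ms4a1 and Pax5.

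Ms4a1 (CD20) was at 62.6, 95.6, 55.7, 11.5 and 107 CPM across sham replicates 1 to 5, and at 35.0, 32.3, 0, 28.9 and 118 CPM across the pMCAO libraries (replicates 1 to 5). The 3 highest libraries were pMCAO 5, sham 5 and sham 2, and the lowest was pMCAO 3, without a single count. Group means were 66.4 ± 37.4 CPM for sham and 42.9 ± 44.4 CPM for pMCAO (SD, n = 5 each), and 4 of 5 pMCAO libraries lay below the sham mean. The log2 fold change was -0.63 ± 0.92 (SE, edgeR FDR = 0.952). Without pMCAO 3 the estimate was -0.32, without pMCAO 5 it was -1.47, and without the 2 libraries with high Xist it was -0.29. With limma-voom it was -1.40.

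Pax5 followed the order of Ms4a1 closely. It stood at 18.4, 61.4, 18.7, 3.52 and 68.0 CPM in sham replicates 1 to 5, and at 16.0, 10.4, 0, 12.9 and 76.8 CPM in the pMCAO replicates. Sham 2, sham 5 and pMCAO 5 again held the highest levels, at least 61.4 CPM each, and no other library was above the 18.7 CPM of sham 3. The difference was -0.55 ± 1.01 on the log2 scale (SE, edgeR FDR = 0.962), -0.24 without pMCAO 3 and -1.80 without pMCAO 5. It was 0.01 without the 2 libraries with high Xist and -1.29 with limma-voom.

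Cd79a, the alpha chain of the receptor's signalling pair, was at 15.1, 36.6, 13.3, 0.189 and 27.3 CPM across the sham libraries, and at 15.1, 28.1, 0, 10.2 and 35.9 CPM across the pMCAO libraries (replicates 1 to 5). Sham 4 held 3 counts and pMCAO 3 held none, where 3 counts would be 0.303 CPM (a limit from counting alone). The same 3 libraries were high as for Pax5, but pMCAO 2 joined them. Means were 18.5 ± 13.96 CPM and 17.8 ± 14.3 CPM, and the log2 fold change was -0.05 ± 1.03 (SE, edgeR FDR = 0.999). The estimate was 0.26 without pMCAO 3 and -0.37 without sham 4, so its direction depended on single libraries. It was 0.27 without the 2 libraries with high Xist and -0.30 with limma-voom.

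Cd79b, the beta chain of the same pair, had a much narrower range. It was at 70.0, 114, 81.0, 59.0 and 92.7 CPM across the sham libraries, and at 34.0, 101, 54.1, 37.6 and 81.0 CPM across the pMCAO libraries (replicates 1 to 5). No library was near 0: pMCAO 3 held 535 counts of Cd79b and none of Cd79a, and sham 4 held 939 against 3. The highest library was 3.36 times the lowest. Cd79b had the smallest SE of the B cell genes, with a log2 fold change of -0.44 ± 0.30 (edgeR FDR = 0.922). The estimate was -0.27 without the 2 libraries with high Xist. Means were 83.4 ± 21.4 CPM in sham and 61.5 ± 28.7 CPM in pMCAO (SD, n = 5 each).

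Among the plasma cell genes, Tnfrsf17 (BCMA) was at 13.1, 36.9, 12.96, 6.48 and 7.25 CPM across the sham libraries, and at 8.65, 54.5, 5.76, 3.77 and 13.97 CPM across the pMCAO libraries (replicates 1 to 5). Replicate 2 of each group stood highest, and pMCAO 4 stood lowest. Sham 5, which had the second highest Ms4a1 level, was among the 4 lowest libraries for Tnfrsf17. Means were 15.3 ± 12.4 CPM and 17.3 ± 21.1 CPM, with a log2 fold change of 0.19 ± 0.70 (SE, edgeR FDR = 0.981).

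Mzb1, the endoplasmic reticulum protein of antibody-secreting cells, was at 84.3, 225, 87.9, 13.1 and 82.6 CPM across the sham libraries, and at 52.0, 341, 23.5, 13.5 and 93.1 CPM across the pMCAO libraries (replicates 1 to 5). Its order resembled that of Tnfrsf17, with replicate 2 of each group on top and sham 4, pMCAO 4 and pMCAO 3 at the bottom. The log2 fold change was 0.09 ± 0.81 (SE, edgeR FDR = 0.996). Sdc1 (CD138) was at 26.7, 75.2, 35.5, 2.39 and 22.1 CPM across the sham libraries, and at 29.3, 87.3, 3.54, 6.73 and 17.0 CPM across the pMCAO libraries (replicates 1 to 5). It was high and low in the same libraries as Mzb1 and spanned 36.5-fold, with a log2 fold change of -0.17 ± 0.84 (SE, edgeR FDR = 0.988).

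Xbp1, the secretory transcription factor, was the most abundant of the 9 genes, in CPM and per kilobase of exon. It was at 291, 728, 402, 192 and 247 CPM across the sham libraries, and at 387, 894, 178, 133 and 315 CPM across the pMCAO libraries (replicates 1 to 5). Replicate 2 of each group was again highest, but the spread was 6.74-fold and the lowest library, pMCAO 4, still held 133 CPM. The log2 fold change was 0.04 ± 0.50 (SE, edgeR FDR = 0.999). Prdm1 (Blimp-1) was at 125, 193, 125, 139 and 62.0 CPM across the sham libraries, and at 147, 206, 111, 109 and 92.1 CPM across the pMCAO libraries (replicates 1 to 5). Sham 5 and pMCAO 5, both high in Ms4a1 and Pax5, were the lowest libraries for Prdm1, and sham 4, where Ms4a1 and Sdc1 were low, held 139 CPM. The log2 fold change was 0.04 ± 0.29 (SE, edgeR FDR = 0.991).

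Single libraries set the sign of several plasma cell estimates. Without pMCAO 2 the log2 fold change was -1.11 for Mzb1, -1.21 for Sdc1, -0.93 for Tnfrsf17 and -0.56 for Xbp1, and without sham 2 it was 0.65, 0.41, 0.81 and 0.43 in the same order. The lowest FDR of any of the 9 genes in any alternative was 0.629, for Cd79b.

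**Figure D2:**
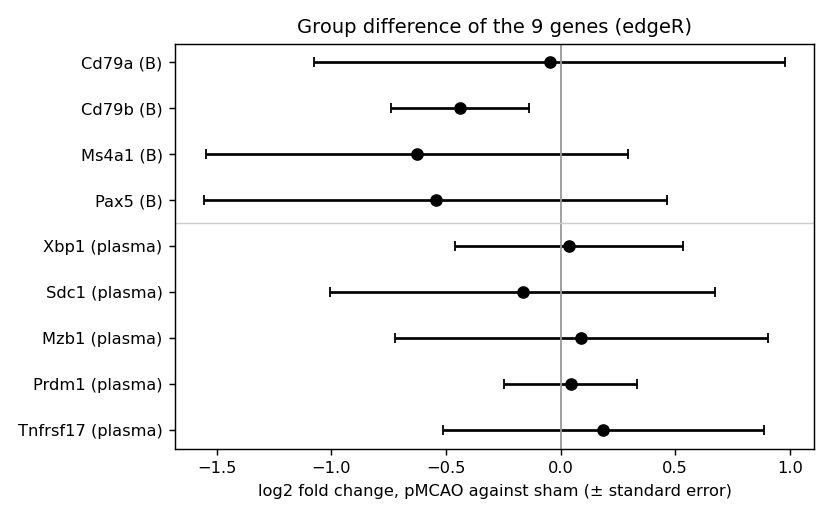
Log2 fold change of pMCAO against sham for each gene from edgeR (horizontal axis), with 1 standard error to each side and 5 libraries per group; B cell genes are above the line and plasma cell genes below. Estimates lie between -0.63 (Ms4a1) and 0.19 (Tnfrsf17), and Cd79b and Prdm1 have the narrowest bars.

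The spread between libraries of a group was widest for the 3 genes without a count in pMCAO 3. The within-group SD of log2 CPM was 3.32 for Cd79a, 3.12 for Ms4a1 and 2.95 for Pax5, more than in 99.5%, 99.4% and 99.3% of the genes tested. For Sdc1, Mzb1 and Tnfrsf17 it was 1.82, 1.66 and 1.26, above 92.3%, 88.7% and 79.0% of genes. Xbp1 had an SD of 0.92, whereas Cd79b (0.55) and Prdm1 (0.53) were at or under the median gene (0.575). The log2 value of a library at 0 depends on the prior count of 2, so the first 3 SDs hold for that choice. Per kilobase of exon, mean levels were 116 RPKM for Xbp1, 83.6 for Mzb1, 50.6 for Cd79b, 23.5 for Prdm1, 20.05 for Tnfrsf17, 12.5 for Cd79a, 8.83 for Ms4a1, 8.03 for Sdc1 and 3.23 for Pax5. The ranges of all 8 neighbouring pairs in this order overlapped. The higher gene of a pair was higher in 9 of 10 libraries for Xbp1 over Mzb1 and in 5 of 10 for Ms4a1 over Sdc1.

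The question of whether B cell and plasma cell genes varied together over the 10 libraries was addressed with the 36 pairs of genes. Spearman's rho of log2 CPM had a median of 0.758 over the 6 pairs of B cell genes (0.515 to 0.976), 0.812 over the 10 pairs of plasma cell genes (0.333 to 0.939) and 0.539 over the 20 mixed pairs (-0.370 to 0.842). After Benjamini-Hochberg adjustment over the 36 pairs, rho passed 0.05 by permutation in 3 pairs of B cell genes, 6 of plasma cell genes and 4 mixed pairs. Pearson's r passed it in 3, 6 and 3. The genes were chosen with earlier results of these data known, and no share over other gene pairs was computed. Such correlations were not particular to the members: among 15403 genes, Cd79a ranked 247 in r with Ms4a1 and Sdc1 ranked 195 with Tnfrsf17. That the medians differ was not tested, because pairs share genes and libraries. With the means of each replicate number also removed, the median was 0.473 for B cell pairs, 0.715 for plasma cell pairs and 0.588 for mixed pairs. The order of B cell pairs and mixed pairs then turned.

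**Figure D3:**
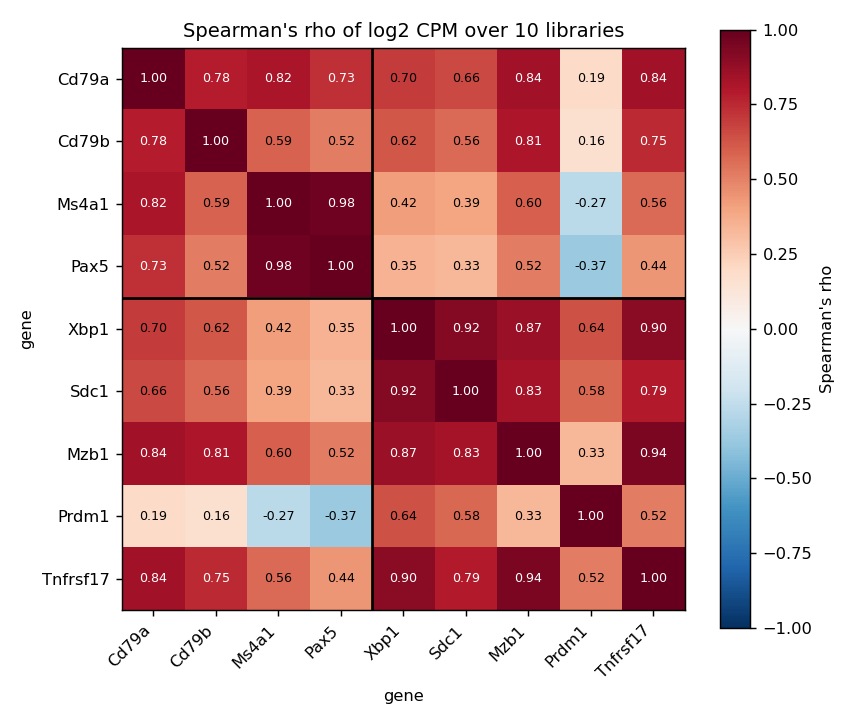
Spearman's rho of log2 CPM between each pair of the 9 genes over 10 libraries (colour and printed value); the black lines part the 4 B cell genes from the 5 plasma cell genes. Ms4a1 and Pax5 have the highest value, and Prdm1 has values below 0 with Ms4a1 and Pax5.

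Ms4a1 and Pax5 formed the closest pair, with r = 0.983 and rho = 0.976 (permutation p = 1e-05 for each, the smallest that 100000 resamples can give, adjusted p = 0.00036). Without sham 4 and pMCAO 3, the libraries farthest from the median, r was 0.950. Cd79a and Ms4a1 had r = 0.887 and rho = 0.818 (permutation p = 0.0004 and 0.00585, adjusted 0.00231 and 0.0234), and r was 0.679 without the same libraries. The receptor chains were less tightly tied: Cd79a and Cd79b had rho = 0.782 (permutation p = 0.0104, adjusted 0.0311) but r = 0.378 (permutation p = 0.288, adjusted 0.365), which became 0.750 without sham 4 and pMCAO 3.

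Of the plasma cell genes, Xbp1 and Tnfrsf17 had r = 0.957 and rho = 0.903 (permutation p = 8e-05 and 0.00085, adjusted 0.00144 and 0.00765), and r was 0.867 without sham 2 and pMCAO 2. Mzb1 and Tnfrsf17 had r = 0.919 and rho = 0.939 (permutation p = 0.00012 and 0.00021, adjusted 0.00144 and 0.00378), and r was 0.941 without sham 4 and pMCAO 4. Across the classes, Ms4a1 and Tnfrsf17 had r = 0.371 and rho = 0.564 (permutation p = 0.298 and 0.0966, adjusted 0.365 and 0.151), and r was 0.129 without sham 4 and pMCAO 3. Both Cd79 genes also varied with plasma cell genes. Cd79b and Mzb1 had r = 0.761 and rho = 0.806 (permutation p = 0.0116 and 0.00718, adjusted 0.0379 and 0.0258), with r = 0.898 without pMCAO 1 and pMCAO 4. Cd79a and Tnfrsf17 had rho = 0.842 (permutation p = 0.00383, adjusted 0.0197) and r = 0.515 (permutation p = 0.108, adjusted 0.186), or r = 0.648 without sham 4 and pMCAO 3. Pax5 and its repressor Prdm1 had r = -0.10 and rho = -0.37 (permutation p = 0.759 and 0.293, adjusted 0.818 and 0.351), with r = -0.48 without sham 4 and pMCAO 3.

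**Figure D4:**
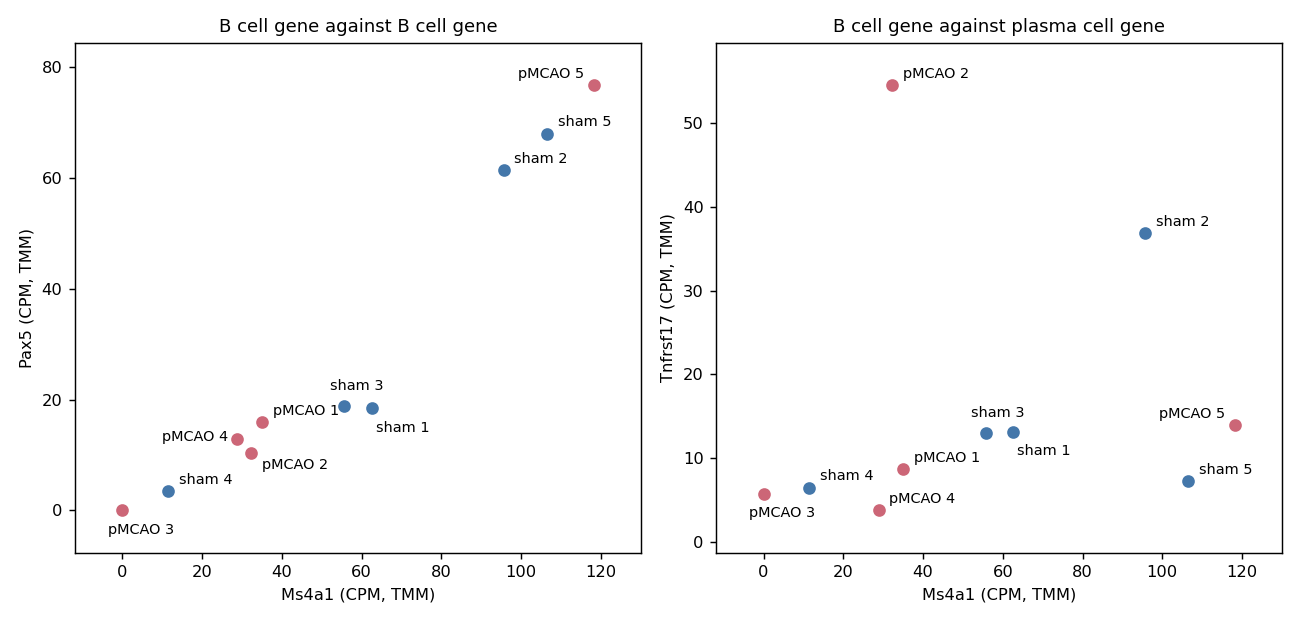
Pax5 (left) and Tnfrsf17 (right) against Ms4a1, each axis in CPM with TMM scaling; each point is a library, blue for sham and red for pMCAO. Pax5 rises with Ms4a1, with 3 libraries above a gap, while Tnfrsf17 is highest in pMCAO 2, which has 32.3 CPM of Ms4a1.

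Summed over the 4 B cell genes, the level was 166, 308, 169, 74.3 and 295 CPM in sham and 100.1, 171, 54.1, 89.5 and 312 CPM across the pMCAO libraries (replicates 1 to 5). Summed over the 5 plasma cell genes, it was 540.2, 1258, 663, 353 and 421 CPM in sham and 625, 1583, 322, 265 and 531 CPM across the pMCAO libraries (replicates 1 to 5). Sham 2 was high in both sums, sham 5 and pMCAO 5 were high in the B cell sum alone, and pMCAO 2 was high in the plasma cell sum. The ratio of the plasma cell sum to the B cell sum was 3.25, 4.09, 3.93, 4.75 and 1.43 in sham and 6.24, 9.24, 5.96, 2.96 and 1.70 in pMCAO replicates 1 to 5. It was lowest in replicate 5 of each group, highest in pMCAO 2, and overlapped between the groups. In sham 4, Sdc1, Mzb1 and Tnfrsf17 together held 22.0 of the 353 CPM of the plasma cell sum, and Xbp1 and Prdm1 the rest. Cd79b was 59.0 of the 74.3 CPM of the B cell sum in sham 4 and all 54.1 CPM in pMCAO 3. The ratio is therefore not a measure of plasma cells against B cells alone. On the log2 scale, pMCAO minus sham was -0.57 for the B cell sum, -0.12 for the plasma cell sum and 0.46 for the ratio, given without a test because the members had been chosen. As the mean of log2 CPM over the genes, the B cell difference was -1.21 and the plasma cell difference was -0.20. Without Xbp1 and Prdm1 the plasma cell sum differed by -0.35. Without the 2 libraries with high Xist the B cell sum differed by -0.29 and the plasma cell sum by 0.02. Immunoglobulin genes took 4.61%, 14.1%, 5.56%, 0.524% and 4.13% of counts in sham and 5.41%, 16.7%, 0.847%, 0.781% and 4.72% in pMCAO replicates 1 to 5. As in the plasma cell sum, replicate 2 of each group held the highest share. Of 11 immunoglobulin constant genes, 7 had a higher rho with Tnfrsf17 and 4 a higher rho with Ms4a1 (median rho 0.794 and 0.539).

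Further B lineage genes gave no call either. Of 22 other B cell genes, edgeR called 0, with 8 estimates above 0 and 14 below (median log2 fold change -0.09). Of 21 other plasma cell genes, 0 were called, with 11 estimates above 0 and 10 below (median 0.06). The most abundant B cell genes of the list were Bank1, an adaptor of the B cell receptor (168 to 484 CPM), Pou2f2, the octamer-binding factor Oct-2 (91.7 to 188 CPM), and Pou2af1, its coactivator (19.2 to 425 CPM). Pou2f2 had the smallest unadjusted p of the list, with 107 ± 12.8 CPM in sham and 147 ± 30.5 CPM in pMCAO (SD, n = 5 each) and a log2 fold change of 0.45 ± 0.17 (SE, edgeR FDR = 0.922). The leading plasma cell genes were Jchain, the joining chain of IgA and IgM (738 to 26767 CPM), the chaperone Hsp90b1 (745 to 2887 CPM) and Edem1, which disposes of misfolded proteins (120.2 to 535 CPM).

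Likeness of the lists to Ms4a1 and to Tnfrsf17 is given as a description over 10 libraries that share depth and composition. Among the members themselves, Cd79b (rho = 0.588 with Ms4a1 and 0.745 with Tnfrsf17) was closer to Tnfrsf17, and Pax5 was closer to Ms4a1. For Cd79a, rho was 0.818 with Ms4a1 and 0.842 with Tnfrsf17, whereas Pearson's r was 0.887 and 0.515. The side of Cd79a therefore depended on the measure. The median rho of the 22 B cell genes was 0.764 with Ms4a1 and 0.545 with Tnfrsf17, and 15 of 22 had the higher rho with Ms4a1. For the 21 plasma cell genes it was 0.503 with Ms4a1 and 0.855 with Tnfrsf17, and 20 of 21 had the higher rho with Tnfrsf17. These counts keep the sign of rho, so a gene below 0 with each, such as Bank1, counts toward the less negative value. In 20 of the 21 plasma cell genes the highest library was replicate 2 of either group, and in 17 of the 22 B cell genes it was sham 2, sham 5 or pMCAO 5. Of the 22 B cell genes, 3 had a rho below 0 with Ms4a1, namely Bank1 (-0.66), Cd72 (-0.65, named after its values were seen) and Pou2f2 (-0.28), and Pou2af1 ran with the plasma cell genes (rho = 0.927 with Tnfrsf17). Of the BAFF and APRIL receptors, Tnfrsf13c (BAFF-R, 4.97 to 91.7 CPM) was closer to Ms4a1 (rho = 0.903) than to Tnfrsf17 (0.648), and Tnfrsf13b (TACI, 15.7 to 101 CPM) had rho = 0.430 with Ms4a1 and 0.903 with Tnfrsf17. The remaining leading gene of that system, the adaptor Traf3, ranged from 25.5 to 47.2 CPM.

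**Figure D5:**
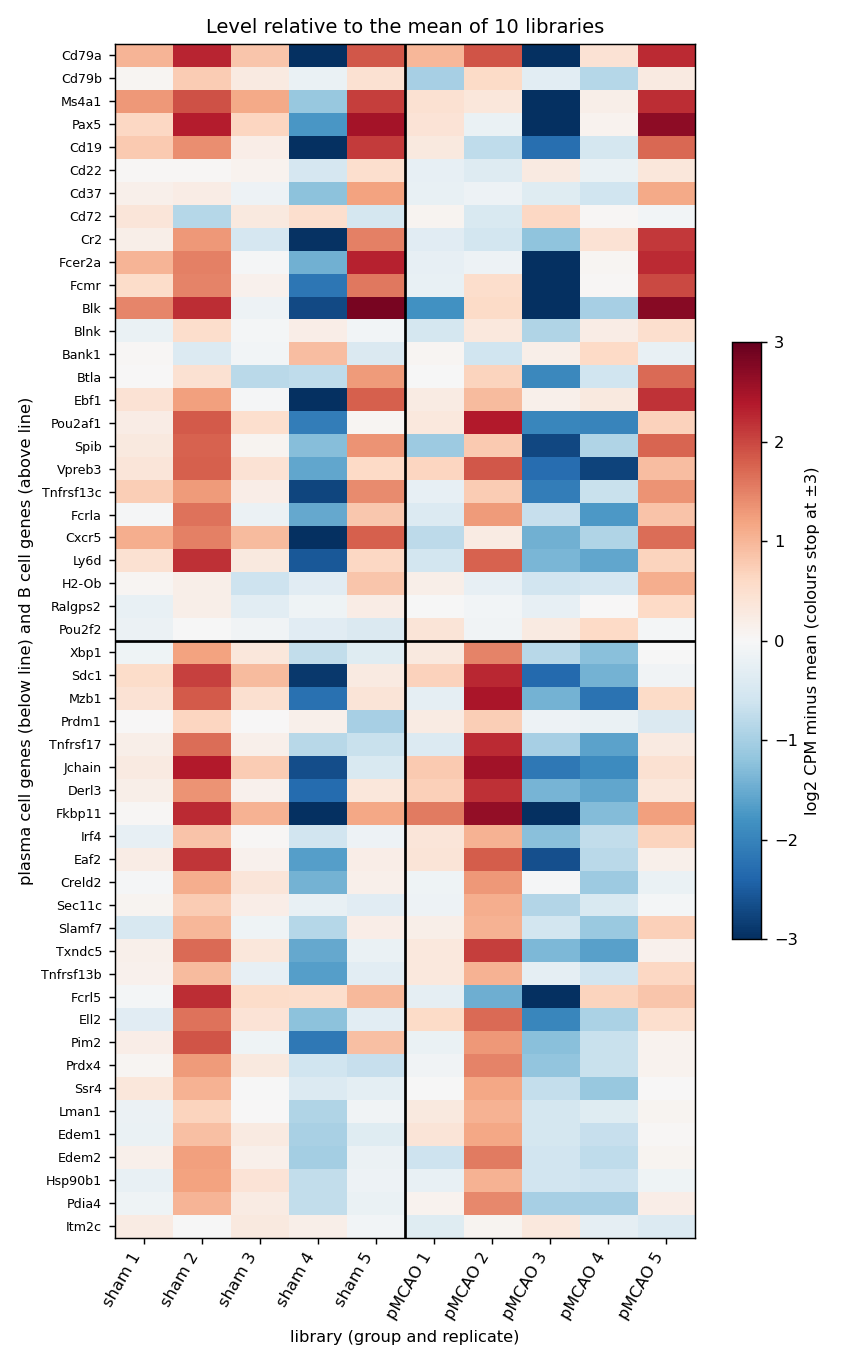
Level of the B cell genes (above the line) and plasma cell genes (below) in each library (columns), as log2 CPM minus the mean of the 10 libraries (red higher, blue lower, colours stop at ±3). Most plasma cell genes are red in replicate 2 of each group, and many B cell genes are red in sham 2, sham 5 and pMCAO 5 and blue in sham 4 and pMCAO 3.

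Other gene groups around the members were also without a call: 0 of 9 measured germinal centre genes (median log2 fold change -0.31, led by Bcl6, Bach2 and Basp1), 0 of 12 B cell receptor signalling genes (-0.07, led by Cd81, Lyn and Syk), 0 of 8 genes of the BAFF and APRIL system (-0.08), 0 of 16 XBP1 target genes (-0.07, led by Hspa5, Ssr3 and Atf6) and 0 of 11 immunoglobulin constant genes (-0.01, led by Igha, Igkc and Iglc1). The smallest FDR in each was 0.922. All 16 XBP1 target genes had a higher rho with Tnfrsf17 (median 0.636) than with Ms4a1 (median 0.279). The same held for all 11 macrophage, all 10 epithelial and all 7 plasmacytoid dendritic cell markers, so it was not particular to XBP1 targets. For the macrophage markers both medians were below 0 (-0.430 with Tnfrsf17 and -0.721 with Ms4a1). Igha, the heavy chain of IgA, ranged from 2599 to 83489 CPM and Igkc, the kappa light chain, from 1648 to 56698 CPM.

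Of the markers of other cells, those of T cells moved with the B cell genes. The 11 T cell markers, led by Cd4, Trbc1 and Trbc2, had a median rho of 0.867 with Ms4a1 and 0.503 with Tnfrsf17, and their sum was highest in sham 5 (699.6 CPM) and, among pMCAO libraries, in pMCAO 5 (437 CPM). All 11 T cell estimates were below 0 (median log2 fold change -0.87, 0 called), and 1 of the 11 had no count in pMCAO 3. Cd4, which macrophages of the gut also express, ran against its list (rho = -0.70 with Ms4a1). The 11 macrophage markers ran the other way, with a median rho of -0.72 with Ms4a1, and summed lowest in sham 5 and pMCAO 5, at 8313 and 8998 CPM (median log2 fold change 0.15). Markers of plasmacytoid dendritic cells (Tcf4, Bst2 and Ccr9 leading the 7), of other dendritic cells (Cd209a, Itgae and Batf3 leading the 7) and of epithelium (Fabp2, Epcam and Krt8 leading the 10) had median rho values with Ms4a1 of 0.285, 0.176 and -0.15, median log2 fold changes of -0.26, -0.15 and -0.69, and 0 genes called. The part of these cells in the levels of the 9 genes was not tested.

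Among 15403 genes with a mean of at least 1 CPM, the 5 most like Ms4a1 by Pearson's r over the 10 libraries were Cd5 (0.989), Zfp324 (0.986), Fam129c (0.984), Pax5 (0.983) and Ccdc125 (0.983), with immunoglobulin genes set aside. Cd79a ranked 247 and Cd79b 4404. The 5 most like Tnfrsf17 were Rexo2 (0.979), Ssr4 (0.974), Pdia4 (0.962), Gm13736 (0.961) and Gm4997 (0.958), and Xbp1 and Mzb1 ranked 6 and 23. The first 50 genes held 0 immunoglobulin genes for Ms4a1 and 4 for Tnfrsf17.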

How the data were processed

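The authors deposited 1 table for the macrophage libraries, with whole-number counts per gene and the authors' own CPM values, which equalled counts scaled to the listed total. The same table held the authors' log2 fold change, mean expression, p-value and FDR columns, which were not used. Per the submitters' processing notes, STAR, featureCounts, limma and GRCm38 (mm10) were used. Versions, strandedness and annotation were not given in the sources used here. Every listed gene had at least 10 counts in at least 2 libraries.

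Groups came from the sample titles. Low counts were removed (filterByExpr), TMM factors were applied, and the groups were compared in R 4.3.3 by edgeR 4.0.16 (glmQLFit and glmQLFTest), with Benjamini-Hochberg adjustment over 16949 genes and an FDR limit of 0.05. Levels are CPM with TMM scaling, log2 CPM used a prior count of 2, and RPKM used the exon union of GENCODE M21. Correlations had two-sided permutation tests with 100000 resamples. Alternatives were DESeq2 1.42.0, limma-voom (limma 3.58.1), other scalings, filters and prior counts, a replicate block, and libraries left out. The edgeR, DESeq2 and limma-voom steps were tested on simulated data. Total counts were 6430643 to 60665972, so weak genes were less precise in the shallower pMCAO libraries, and limits from counts of 3 cover counting error only. No 2 replicates agreed within sampling noise.

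The members and lists were chosen with earlier results of these data known. The text names the 9 members, the 3 genes of each list with the highest mean CPM, the 5 genes most like Ms4a1 and Tnfrsf17 by Pearson's r, and Xist. Tnfrsf13b and Tnfrsf13c belong to that rule through the BAFF and APRIL list. The genes that DESeq2 called are given as a count, and their names are not reported here.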

Additional observations from a re-analysis of the deposited data

Results flagged for a closer look

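In 22 sets of 5 libraries (the 9 genes and the 2 sums, each in sham and in pMCAO), a library was marked where, on the scale of log2 CPM with a prior count of 2, its gap to the nearest other library exceeded 0.71 of the range of its group, Dixon's 95% limit. It held for 4 sets, where chance gives about 1.1, and the 4 share libraries and genes that vary together. Cd79a in sham replicate 4 (0.189 CPM, against at least 13.3 CPM in the other sham libraries) had a gap of 0.796 of the log2 range. In pMCAO replicate 3, which held no count of Cd79a, Ms4a1 or Pax5, the gap was 0.797 for Cd79a, 0.809 for Ms4a1 and 0.713 for Pax5. In these 2 libraries Cd79b was at 59.0 and 54.1 CPM, Xbp1 at 192 and 178 CPM and Prdm1 at 139 and 111 CPM, and the summed macrophage markers were at 13897 and 16821 CPM. Among genes whose mean in the other 9 libraries was at least that of Cd79a, 16 had no count in sham replicate 4 and 27 had none in pMCAO replicate 3. The same count was 11 in pMCAO replicate 4 and 0 to 2 in each remaining library. In CPM as it stands, a scale added after the data were seen, 0 of the 4 gaps passed the limit (0.135 to 0.360), and 5 others did, at the high end: Pax5 in pMCAO replicate 5 (0.792), Mzb1 (0.757), Tnfrsf17 (0.799) and the plasma cell sum (0.727) in pMCAO replicate 2, and Tnfrsf17 in sham replicate 2 (0.782). The cause was not tested.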

How the results depend on the processing

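No alternative brought any of the 9 genes to an FDR of 0.05; their FDR ran from 0.629 to 1.00. DESeq2 called 3 genes in the whole table where edgeR called 0. Signs of the log2 fold changes turned in 29 of 171 single-gene refits. Without the 2 libraries with high Xist, Cd79a was at 0.27, Pax5 at 0.01 and Prdm1 at -0.073. Xbp1 was then at 0.13, Sdc1 at -0.03, Mzb1 at 0.31 and Tnfrsf17 at 0.25. Median rho was 0.774 within B cell genes, 0.786 within plasma cell genes and 0.595 between them without these 2. Under limma-voom, Xbp1 was at -0.13 and Mzb1 at -0.18, while Ms4a1 (-1.40), Pax5 (-1.29) and Cd79a (-0.30) kept their sign and moved by over 1.5 times. Without both libraries described as pools, Xbp1 was at -0.047 and Prdm1 at -0.0033. The labels name no batch, litter or day shared by number, and the replicate numbers were not taken to pair the libraries. Deviations of same-numbered libraries correlated at -0.0055 to 0.372 (mean 0.197), and 5 of 10 libraries correlated best with their own number. Whether same-numbered libraries shared a batch was not tested. With the replicate block, 0 genes were called (smallest FDR 0.173, with 1303 genes at an unadjusted p under 0.05 against 799 without it), Cd79b was at -0.53 (unadjusted p = 0.0107 from edgeR, FDR = 0.629), Xbp1 was at -0.12, Mzb1 at -0.34, Tnfrsf17 at -0.19, Ms4a1 at -1.02 and Pax5 at -0.96. The median rho within B cell genes was then 0.473, below that of the mixed pairs (0.588), so their order turned. Cd79b was lower in the pMCAO library at 5 of 5 replicate numbers. The block changed no call. The causes were not tested.

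Leaving out 1 library at a time gave 0 calls throughout and log2 fold changes of -0.47 to 0.35 for Cd79a, -0.69 to -0.29 for Cd79b, -1.47 to -0.32 for Ms4a1, -1.80 to -0.14 for Pax5, -0.56 to 0.43 for Xbp1, -1.21 to 0.41 for Sdc1, -1.11 to 0.65 for Mzb1, -0.17 to 0.24 for Prdm1 and -0.93 to 0.81 for Tnfrsf17. The log2 difference of the B cell sum ran from -0.92 to -0.28 and that of the plasma cell sum from -0.51 to 0.16. Median rho ran from 0.692 to 0.842 within B cell genes, 0.742 to 0.892 within plasma cell genes and 0.400 to 0.625 between them. Depth limits the low genes most in pMCAO replicate 1, where 3 counts are 0.440 CPM.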
